A study of Drosophila melanogaster with 4 samples.

Results

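All peaks of ASH1 and FSH on the X chromosome of Drosophila melanogaster S2-DRSC cells are described here, chosen by chromosome alone. The ASH1 list held 1889 peaks on X of 10748 in all (17.6%), and the FSH list held 1482 of 8824 (16.8%), which gave 3371 X peaks of 19572 together. They were set against the 8400 ASH1 and 6850 FSH peaks of the 4 large autosomal arms, 2L, 2R, 3L and 3R. Peaks on the separately assembled heterochromatic sequence of X (8 for ASH1 and 13 for FSH) were left out of both sides. The study mapped where both proteins sit on chromatin by ChIP-seq, in which DNA bound to a protein is precipitated with an antibody and sequenced, in cells of 1 line with no treatment named. The 4 libraries were made with the antibodies ASH1-N and ASH1-C against ASH1 and with a pair of antibody preparations against FSH. One FSH preparation recognizes both isoforms, whereas the other is given as FSH-S in the sample labels and as specific for FSH-L in the protocol. Reads were merged per protein by the authors ahead of peak calling, so no value depends on this disagreement, but no spread between replicates can be calculated either.

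ASH1 is a histone methyltransferase of the trithorax group, proteins needed to maintain active gene states. The paper favours a general coactivator role of ASH1 and FSH over the model in which such proteins only protect genes from Polycomb silencing. FSH, the product of fs(1)h, is the fly BET protein and binds acetylated histones through its tandem bromodomains. S2 cells, a cultured line from embryos, are of male character. They carry fewer copies of X than of each autosome, and the dosage compensation complex acetylates histone H4 along their active X genes. The peak lists hold neither read counts nor copy numbers. A difference in binding between X and the autosomes therefore cannot be told apart from a difference in the number of DNA copies behind the reads, and the depth behind a peak is unknown.

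The score of a peak was taken to be the log10 of the P value given by the authors' peak caller, multiplied by -10, so that a higher score means stronger evidence of enrichment over input. Scores ran from 50.02 to 3233.06, and exactly 3100 was shared by 18.3% of all ASH1 and 17.7% of all FSH peaks. Peaks at 3100 thus have no order among themselves. Few peaks scored higher (on X 20 for ASH1 and 6 for FSH), and the top score here means at least 3100. Shares on X were compared with those of the autosomal arms together by two-sided Fisher's exact tests, with Benjamini-Hochberg adjustment over the 12 comparisons of density, length, score, spacing and overlap. These tests take each peak as independent and cover only counting error, so the range of the 4 single arms is given as the spread between arms. With X as 1 unit against 4 arms, an exact two-sided permutation test cannot go below 0.2. It gave that value in each of the 12 comparisons except ASH1 density and ASH1 spacing (both 0.6) and FSH density (0.4).

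The X chromosome carried nearly as many peaks per Mb as the autosomes when all peaks were counted. ASH1 peaks occurred at 84.3 per Mb on X, against 87.0 per Mb on the autosomal arms together and 84.2 to 95.5 on single arms. The ratio of 0.969 (95% interval 0.921 to 1.02) did not pass the test (adjusted exact p = 0.212, two-sided exact binomial test on the span of the arms). FSH peaks occurred at 66.1 per Mb on X, against 71.0 on the autosomal arms and 68.3 to 78.3 on single arms. That ratio, 0.932 (0.880 to 0.986), passed the test (adjusted exact p = 0.0164). It did not pass without arm 2R, the densest of the 4 (ratio 0.960, adjusted exact p = 0.182), or without the outer 1 Mb at both ends of every arm (ratio 0.968, adjusted exact p = 0.270). The FSH ratio was lower when neighbouring peaks at most 1 kb apart were counted once (0.884, adjusted exact p = 0.000176). With only peaks of a score of at least 100 it was 0.895 (adjusted exact p = 0.000354). The ASH1 ratio with this limit was 0.906 and passed the test too (adjusted exact p = 0.000424). Counted by groups it was 0.948 (adjusted exact p = 0.0810), and without the arm ends 1.00 (adjusted exact p = 0.969). When overlapping peaks of both lists were joined into sites, X had 1860 sites, or 83.0 per Mb, against 83.8 per Mb on the autosomal arms and 81.5 to 91.6 on single arms.

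Peaks covered less of X than of any autosomal arm. ASH1 peaks covered 1.62 Mb of X, or 7.24% of its 22.4 Mb, against 10.5% of the autosomal arms (9.68% to 11.3%). FSH peaks covered 1.77 Mb, or 7.89% of X, against 10.2% of the autosomal arms (9.58% to 10.96%). This goes with the shorter peaks of X.

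Along the chromosome, bound sites were unevenly spread and both proteins followed the same course. Over the 22 full 1 Mb bins of X, ASH1 peaks numbered 42, 87 and 151 in the lowest, the median and the highest bin, against a median of 90.5 and a range of 21 to 139 in 94 autosomal bins. FSH peaks numbered 27, 70.5 and 111 on X, against a median of 75 and a range of 22 to 112 in the autosomal bins. The bin between 13 and 14 Mb held most peaks of both lists, with 166 kb covered by ASH1 and 179 kb by FSH, and its ASH1 count exceeded that of each autosomal bin. It was followed by a sparse bin between 14 and 15 Mb with 49 ASH1 and 38 FSH peaks. ASH1 and FSH counts of the 22 bins had a Spearman's rho of 0.974, against 0.960 over the 94 autosomal bins. These are descriptions over neighbouring bins that share libraries and base composition.

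**Figure D1:**
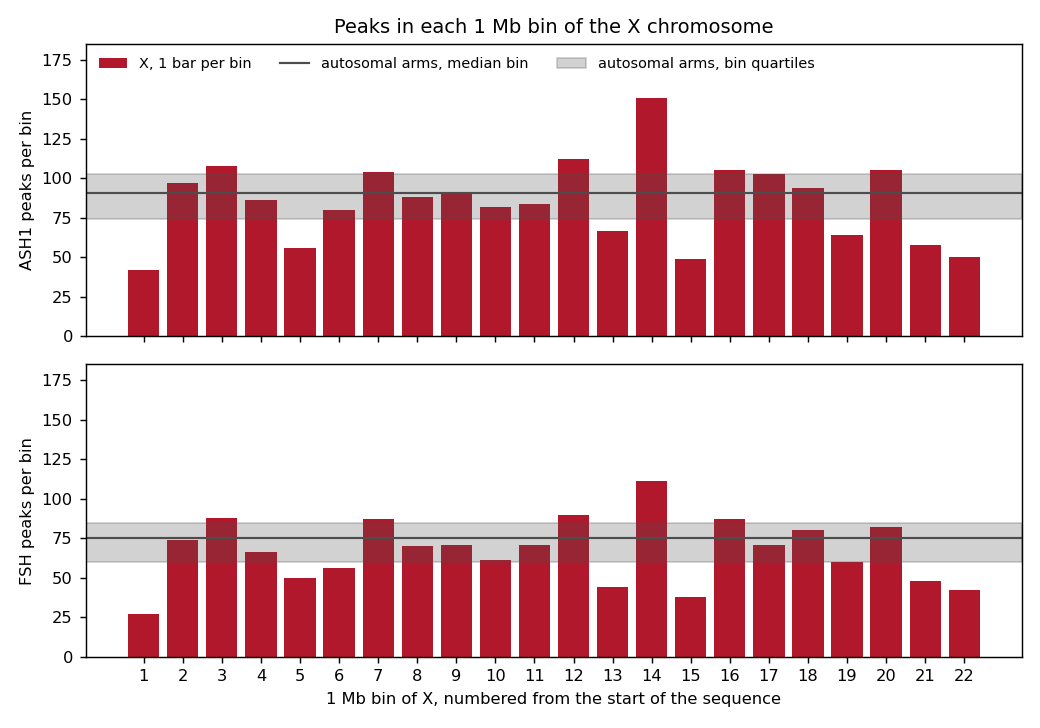
Number of ASH1 (upper) and FSH (lower) peaks in each full 1 Mb bin of X, 1 bar per bin, numbered from the start of the sequence. The line and the band mark the median and the quartiles of 94 autosomal bins. Bin 14 is the highest for both proteins (151 and 111 peaks) and bin 1 the lowest (42 and 27 peaks).

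The first 1 Mb of X held the fewest peaks of the full X bins, although some autosomal bins held fewer. Its shared percentages and median scores were below those of every other full bin. Here 16 of 42 ASH1 peaks were shared with FSH, or 38.1% (95% Wilson interval 25.0% to 53.2%), whereas the lowest autosomal bin had 62.7%. Of its 27 FSH peaks, 15 were shared with ASH1, or 55.6% (37.3% to 72.4%), whereas the lowest autosomal bin had 78.6%. No peak of either protein in this bin reached a score of 3100, which at least 5.77% of ASH1 and 8.11% of FSH peaks did in each full autosomal bin. None reached 2 kb, but the lowest autosomal bins were also at 0% for both proteins. The X bins between 6 and 7, 10 and 11, 14 and 15, and 17 and 18 Mb were at 0% for ASH1 too. The median score was 168 for ASH1, against 389 in the lowest autosomal bin. In the bin between 12 and 13 Mb, 41 of 67 ASH1 peaks were shared (61.2%, 49.2% to 72.0%) but 39 of 44 FSH peaks were (88.6%, 76.0% to 95.05%). These bins were singled out after their values were seen and were not tested. At the opposite end, the partial bin after 22 Mb held 13 ASH1 and 8 FSH peaks, and the last full bin held 50 and 42.

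The shortness of X peaks ran along the whole chromosome. The median length of ASH1 peaks was 667 bp on X, against 921 bp on the autosomal arms and 864 to 944 bp on single arms. The median length of FSH peaks was 831 bp on X, against 1067 bp on the autosomal arms and 990.5 to 1115 bp on single arms. In 22 of 22 X bins the median ASH1 length lay below that of the median autosomal bin, and for FSH this held in 20 of 22 bins. Lengths on X ran between 184 and 13381 bp for ASH1 and between 193 and 24359 bp for FSH.

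Long peaks were less frequent on X for both proteins. On X 68 ASH1 peaks reached 2 kb, or 3.60% (2.85% to 4.54%), against 12.5% on the autosomal arms and 11.5% to 13.8% on single arms. The difference of -8.90 percentage points (-9.94 to -7.74) passed the test with an adjusted exact p of 1.08e-34. For FSH 171 peaks reached 2 kb, or 11.5% (10.0% to 13.3%), against 17.2% on the autosomal arms and 15.6% to 18.6% on single arms (difference -5.66 points, -7.44 to -3.72, adjusted exact p = 8.65e-08). Peaks under 500 bp were more frequent on X. They made up 13.3% of ASH1 and 4.32% of FSH peaks, against 4.94% and 1.88% on the autosomal arms (adjusted exact p = 6.47e-33 and 5.49e-07). These values belong to 19 further comparisons chosen after the data were seen, with p-values from two-sided exact tests adjusted over those 19.

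**Figure D2:**
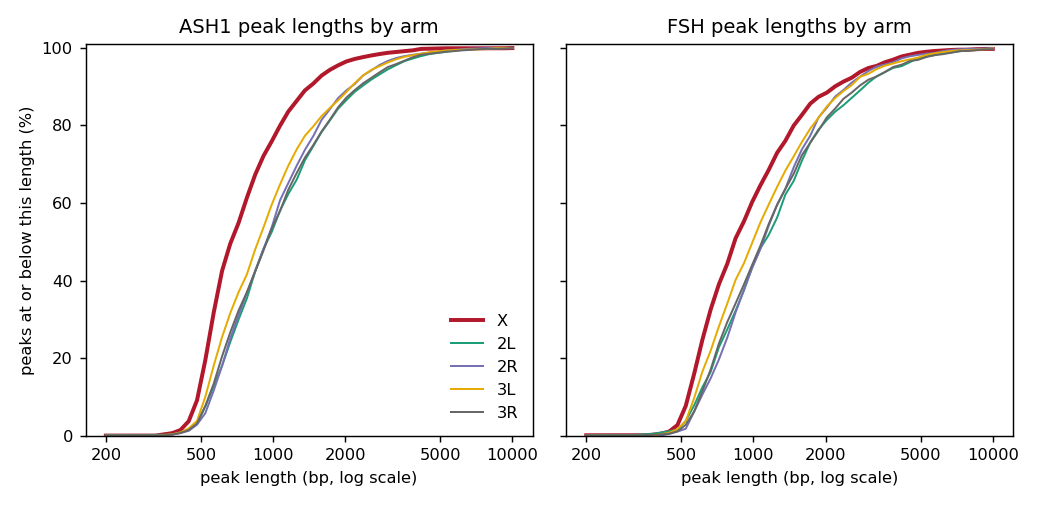
Cumulative share of ASH1 (left) and FSH (right) peaks by length on a log scale, with 1 line per chromosome arm. Over the middle of the range, where most peaks lie, the X line is left of the 4 autosomal lines, with a median of 667 bp in the ASH1 panel and 831 bp in the FSH panel. The lines meet and cross among the shortest and the longest peaks, which are few.

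Scores were also lower on X. Their median was 509 for ASH1 and 557 for FSH, against 948 and 751 on the autosomal arms. A score of at least 3100 was reached by 241 ASH1 peaks, or 12.8% (11.3% to 14.3%), against 20.7% on the autosomal arms and 18.9% to 22.0% on single arms (adjusted exact p = 1.41e-15). For FSH 201 peaks reached it, or 13.6% (11.9% to 15.4%), against 19.5% on the autosomal arms and 18.7% to 20.2% on single arms (adjusted exact p = 8.65e-08). Weak peaks with a score below 100 were more frequent instead. They were 290 ASH1 peaks, or 15.4% (13.8% to 17.05%), against 9.54% on the autosomal arms (adjusted exact p = 3.52e-12). FSH had 191 of them, or 12.9% (11.3% to 14.7%), against 9.33% on the autosomal arms (adjusted exact p = 8.50e-05). The X values lay outside the range of the 4 arms for both proteins and both classes.

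**Figure D3:**
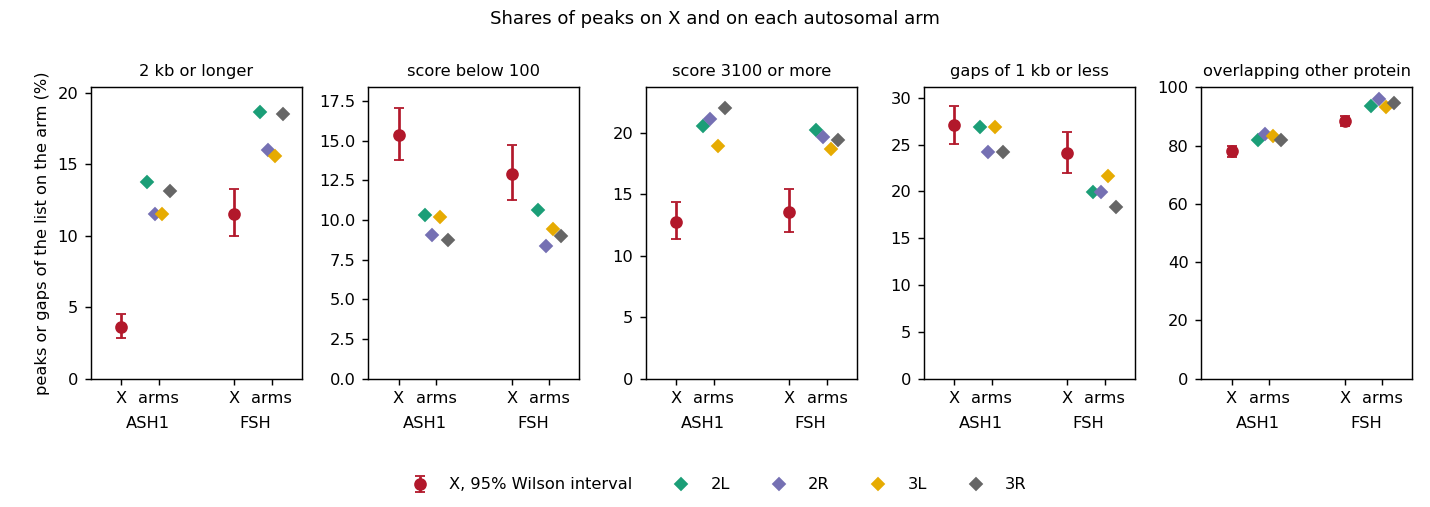
Percentage of peaks (or of gaps between neighbouring peaks) on X with its 95% Wilson interval, and on each of 4 autosomal arms, for the 5 properties tested as shares. X lies outside the 4 arms in every panel for FSH and for ASH1, but for ASH1 gaps of 1 kb or less the X interval (25.1% to 29.1%) reaches the values of arms 2L and 3L.

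Longer peaks had higher scores, on X as on the autosomal arms. Spearman's rho between them was 0.622 over the ASH1 peaks of X, against 0.512 on the autosomal arms, and 0.700 over the FSH peaks, against 0.572. Peaks were therefore also compared within 5 score classes, a division chosen after the data were seen. Weighted by the X peaks, the share of ASH1 peaks of at least 2 kb still differed by -6.18 points (3.60% on X against 9.78% on the autosomal arms, Mantel-Haenszel chi-square test, adjusted p = 3.48e-18), whereas for FSH the difference came to -2.28 points (adjusted p = 0.0136). By the same chi-square test within length classes, the excess of weak peaks on X was 0.34 points for ASH1 and 0.76 points for FSH and no longer passed the test (adjusted p = 0.965 and 0.513). These averages join classes of opposite sign. Among peaks under 500 bp, scores below 100 were found for 60.6% of ASH1 peaks on X, against 51.8% on the autosomal arms (adjusted exact p over 16 class comparisons = 0.0802). At 1000 to 2000 bp they were found for 0.80% of ASH1 peaks, against 2.33% (adjusted exact p = 0.128), and for 0.98% of FSH peaks, against 3.25% (adjusted exact p = 0.0417). Also within length classes and by the chi-square test, the shortage of peaks at the top score came to -2.20 points for ASH1 and -2.10 points for FSH (adjusted p = 0.0205 and 0.0349). The longest class went the other way. Among peaks of at least 2 kb, the top score was reached by 34 of 68 ASH1 peaks on X, against 461 of 1050 on the autosomal arms (adjusted exact p = 0.478), and by 70.2% of FSH peaks on X, against 60.5% (adjusted exact p = 0.0582).

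The strongest ASH1 peaks were shorter on X, which was not found for the strongest FSH peaks. Among peaks with a score of at least 3100, the median length for ASH1 was 1079 bp on X, against 1341 bp on the autosomal arms (1263.5 to 1444 bp), and 14.1% reached 2 kb, against 26.5% (adjusted exact p over 20 class comparisons = 0.000107). FSH peaks of this class had a median of 2434 bp on X, against 2112 bp on the autosomal arms (2001.5 to 2385 bp). Of them 59.7% reached 2 kb, against 53.4%, a difference that did not pass the test (adjusted exact p = 0.184). In the classes below 1000 the median FSH length on X lay under that of each arm, for example 821 bp against 968.5 bp (901 to 1009.5 bp) at scores of 200 to 1000. At 1000 to 3100 it was 1282.5 bp, against 1351 bp, and lay within the range of the arms (1264 to 1417 bp).

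**Figure D4:**
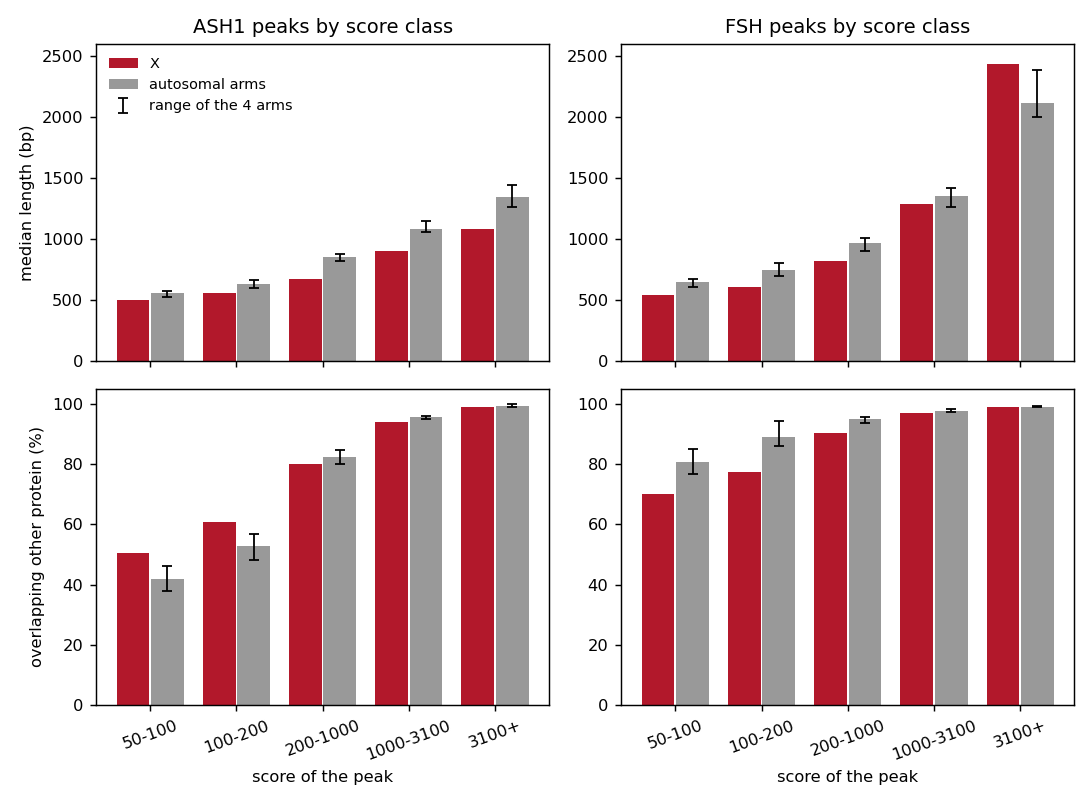
Median length (upper) and percentage overlapping a peak of the other protein (lower) for ASH1 (left) and FSH (right) peaks in 5 score classes, on X and on the autosomal arms. Bars for the autosomal arms give the 4 arms together and their whiskers the range of the single arms. X is lower in each length comparison except for FSH peaks at 3100 or more (2434 bp against 2112 bp), and weak ASH1 peaks on X overlap FSH more often (50.3% against 41.9%).

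The longest peaks of X often differed between the lists in how a region was divided and scored (positions in BDGP Release 5). The longest ASH1 peak, at X:8779316-8792696 (13381 bp), scored only 89.4, while 12599 bp of it were taken by an FSH peak at X:8780064-8792662 with a score of 3100, the second longest of its list. The second longest ASH1 peak, at X:19779188-19789151 (9964 bp), scored 3100, as did the third longest FSH peak over it, at X:19777143-19789037 (11895 bp). The third ASH1 peak, at X:12643629-12648658 (5030 bp, score 3100), overlapped no FSH peak, and the nearest lay 5475 bp away. The longest FSH peak, at X:12554911-12579269 (24359 bp), scored 165, and 3 ASH1 peaks with scores of 871 to 2674 covered 21.5% of it.

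Close neighbours were more frequent on X for FSH, while for ASH1 the difference did not pass the test. Of 1888 gaps between neighbouring ASH1 peaks, 511 were at most 1 kb, or 27.1%, against 25.5% on the autosomal arms and 24.2% to 26.9% on single arms, which did not pass the test (difference 1.59 points, -0.58 to 3.84, adjusted exact p = 0.168). For FSH 357 of 1481 gaps were that short, or 24.1%, against 19.95% and 18.4% to 21.7% on single arms. This difference of 4.15 points (1.83 to 6.58) passed the test (adjusted exact p = 0.000609). The median gap was 3152 bp for ASH1 and 4139 bp for FSH, against 3485 and 4555.5 bp on the autosomal arms.

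At the other extreme, X had 34 gaps of at least 100 kb without ASH1, which held 23.1% of its length, against 14.4% of the autosomal arms (8.56% to 18.4%). For FSH there were 35 such gaps with 24.1% of X, against 16.2% of the autosomal arms. The number of these gaps per Mb was 1.45 times that of the autosomal arms for ASH1 (0.953 to 2.16) and 1.38 times for FSH (0.917 to 2.04), and neither passed the test (adjusted exact p = 0.0904 and 0.138). The longest stretch without an ASH1 peak was X:14142343-14474415 (332 kb), and the longest without an FSH peak, X:14142421-14474361, nearly coincided with it. The next were X:21568294-21844847 (277 kb) for ASH1 and X:21575740-21844828 (269 kb) for FSH, and then X:12121993-12353579 (232 kb) and X:12122123-12365441 (243 kb). The 3 longest gaps of both lists thus lay at the same places. The first falls in the sparse bin between 14 and 15 Mb, and the last in the bin between 12 and 13 Mb in which 61.2% of ASH1 peaks were shared.

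The paper states that its peak caller tends to split broad signals into several close peaks. Numbers of peaks, their lengths and their gaps therefore need not match bound elements. Neighbouring peaks no more than 1 kb apart were joined into groups. Groups of at least 2 kb made up 17.4% of ASH1 groups on X, against 26.1% on the autosomal arms (Fisher's test, adjusted exact p = 1.20e-11). For FSH they made up 24.1%, against 28.4% (adjusted exact p = 0.00454). On X 44.8% of ASH1 peaks stood in groups of at least 2, against 43.0% on the autosomal arms. Single arms ran from 41.3% to 44.9%, so X lay within their range for ASH1. Of FSH peaks on X 42.2% did, against 35.2% on the autosomal arms and 33.2% to 37.6% on single arms. These shares were not tested. Groups of at least 5 peaks were rare. There were 15 among the 1378 ASH1 groups of X (1.09%), against 0.89% on the autosomal arms and 0.72% to 1.27% on single arms. FSH formed 3 such groups out of 1125 (0.27%), against 0.31% and 0.19% to 0.52%. All 15 ASH1 groups contained FSH peaks. Of their 86 ASH1 peaks 79 overlapped one, where 78.1% of all ASH1 peaks of X did. In the FSH groups 17 of 20 peaks were shared, where 88.5% of all FSH peaks of X were. The overlap in autosomal groups of this size is not given here.

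The region with most neighbouring peaks on X was X:7583970-7601725. Over 17.8 kb it held 10 FSH peaks, which covered 87.2% of it and scored 364 to 3100, and 14 ASH1 peaks, which scored only 71.7 to 1032. These ASH1 peaks formed the group with most ASH1 peaks, X:7584699-7591651 (8 peaks, scores 87.6 to 677), and a further group of 6 at X:7593968-7600155. FSH lay over each of the 14 ASH1 peaks, while 1 of the 10 FSH peaks, in the stretch between both ASH1 groups, had no ASH1 peak.

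**Figure D5:**
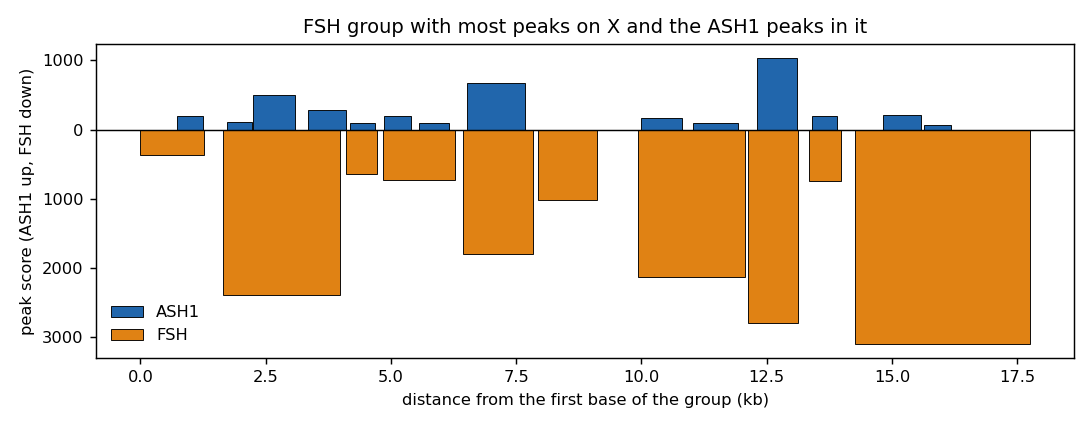
The FSH group with most peaks on X, drawn by distance from its first base, with peak width to scale and peak score upward for ASH1 and downward for FSH. The 10 FSH peaks (scores 364 to 3100) and 14 ASH1 peaks (71.7 to 1032) share the region, and 1 FSH peak at 7941 to 9106 bp has no ASH1 peak over it.

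Other groups had a different balance of the proteins. The ASH1 group at X:8301065-8308939 had 7 peaks with scores of 67.6 to 3100, and 4 of these lay under a single FSH peak of 4730 bp, X:8302712-8307441, with a score of 3100. Its first peak, X:8301065-8302172, scored 3100 and overlapped no FSH peak, the nearest being 539 bp away. A group of 6 ASH1 peaks at X:2195319-2201008, the first of 6 groups tied in size, had scores of 61.1 to 336. The next largest FSH groups, at X:15189953-15195704 and X:15780351-15786963, had 5 peaks each. Over each of them lay 4 ASH1 peaks, with scores of 146 to 2446 at X:15189953-15195704 and of 1447 to 3135 at X:15780351-15786963.

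Most peaks of X were shared between ASH1 and FSH, but fewer than on the autosomes. At least 1 bp of overlap with FSH was found for 1475 ASH1 peaks, or 78.1% (76.2% to 79.9%), against 82.7% on the autosomal arms and 81.7% to 83.8% on single arms (difference -4.59 points, -6.67 to -2.61, adjusted exact p = 7.42e-06). Overlap with ASH1 was found for 1312 FSH peaks, or 88.5% (86.8% to 90.1%), against 94.3% and 93.4% to 95.8% on single arms (difference -5.78 points, -7.58 to -4.15, adjusted exact p = 2.00e-13). In 22 of 22 X bins the shared FSH percentage lay below that of the median autosomal bin. When at least 50% of both peaks had to overlap, the shares were 59.6% and 76.0% on X, against 70.6% and 86.6%.

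Among peaks of like score this difference held for FSH, whereas for ASH1 its direction depended on the score class. Averaged over score classes, the overlap of ASH1 peaks on X was 1.16 points higher than on the autosomal arms and did not pass the Mantel-Haenszel chi-square test (adjusted p = 0.321), which turns its direction. This average joins classes of opposite sign. In the 2 weakest classes the ASH1 overlap was higher on X, with 50.3% against 41.9% at scores of 50 to 100 (adjusted exact p over the class comparisons = 0.0348) and 60.7% against 52.7% at 100 to 200 (adjusted exact p = 0.0436). At 200 to 1000 it was lower on X, with 80.0% against 82.5% (adjusted exact p = 0.205). It was also lower at 1000 to 3100 (94.0% against 95.5%) and at 3100 or more (98.8% against 99.4%). The overlap of FSH peaks on X still differed by -4.84 points within score classes (Mantel-Haenszel chi-square test, adjusted p = 5.04e-10). It was 70.2% against 80.8% at scores of 50 to 100 (adjusted exact p = 0.00649), 77.5% against 89.0% at 100 to 200 (0.000177) and 90.4% against 94.9% at 200 to 1000 (0.000600). In the classes above 1000 neither protein passed the test, and at 3100 or more 98.8% of ASH1 and 99.0% of FSH peaks on X were shared.

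Sites also differed in composition. On X 59.0% of the 1860 sites held exactly 1 peak of each protein, against 68.8% of 8095 sites on the autosomal arms (difference -9.78 points, -12.2 to -7.34, adjusted exact p = 1.51e-14). Sites with ASH1 alone made up 22.3%, against 18.0% (4.28 points, 2.26 to 6.40, adjusted exact p = 6.01e-05). Sites with FSH alone made up 9.14%, against 4.82% (4.32 points, 3.002 to 5.79, adjusted exact p = 3.95e-11). Sites with several ASH1 peaks under 1 FSH peak were 7.69% on X, against 6.02% (1.67 points, 0.42 to 3.06, adjusted exact p = 0.0161), whereas the converse, 1 ASH1 and several FSH peaks, was 1.29% against 1.37% and did not pass the test (-0.08 points, -0.59 to 0.58, adjusted exact p = 0.911).

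Where 1 ASH1 peak met 1 FSH peak, the FSH peak was the wider one more often on X. It was longer in 72.9% of 1097 pairs, against 62.9% of 5566 pairs on the autosomal arms (10.1 points, 7.08 to 12.9, adjusted exact p = 5.79e-10). The ASH1 peak lay fully inside the FSH peak in 43.9% of pairs, against 37.7% (adjusted exact p = 0.000241), and the reverse occurred in 10.9%, against 16.4% (adjusted exact p = 6.73e-06). Median lengths in these pairs were 730 bp for ASH1 and 824 bp for FSH on X, against 973 and 1038 bp. The midpoints of both peaks were a median of 44.5 bp apart on X, against 53.0 bp. Both peaks scored at least 3100 in 3.56% of pairs, against 7.89% (adjusted exact p = 2.28e-07). Over the 1475 shared ASH1 peaks of X, Spearman's rho between the ASH1 score and that of the best overlapping FSH peak was 0.195, against 0.334 on the autosomal arms and 0.318 to 0.383 on single arms. It is given as a description, since neighbouring peaks share libraries.

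Unshared peaks were weak and short, on X as on the autosomal arms. The 414 ASH1 peaks of X without FSH had a median score of 143 and a median length of 522 bp. The shared ones of X had 728 and 751 bp, and the unshared ones of the autosomal arms 152 and 629 bp. For the 170 unshared FSH peaks of X the median score was 144.5 and the median length 594.5 bp. The shared ones of X had 660 and 895 bp, and the unshared ones of the autosomal arms 172 and 610.5 bp. Of the unshared ASH1 peaks of X 25.6% lay within 1 kb of an FSH peak, against 27.7% on the autosomal arms. Of the unshared FSH peaks of X 40.0% lay within 1 kb of an ASH1 peak, against 32.1%. Neither difference passed the test (-2.09 points, -6.71 to 2.86, adjusted exact p = 0.440, and 7.95 points, -0.59 to 16.7, adjusted exact p = 0.111). A score of 3100 was reached by 3 unshared ASH1 peaks of X. One is the first peak of the group at X:8301065-8308939, and the others are neighbours, X:12643629-12648658 and X:12648768-12650995. The strongest FSH peaks without ASH1 were short. They were X:10418608-10419134 (527 bp) and X:18813068-18813734 (667 bp), both with a score of 3100, and X:10190393-10190856 (464 bp) with a score of 3007, and their nearest ASH1 peaks were 8295, 25221 and 2824 bp away. Genes at these positions are not named, because an annotation of BDGP Release 5 was not used here.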

How the data were processed

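Binding of both proteins in S2-DRSC cells was measured by ChIP-seq with 4 libraries, 2 per protein. According to the methods of the study, the authors aligned single-end reads to BDGP Release 5 with Bowtie 0.12.7, merged the alignments of both antibodies per protein with SAMtools 0.1.9 and used MACS 1.4.0 with a limit of 1e-05 on the P value to find peaks over input. The deposited lists give the start, the end and 1 score per peak, and have no header. This deposited score was taken as the log10 of the P value multiplied by -10, since no peak scores below 50, to which that limit corresponds. Since 1 pooled list per protein was analysed, no replicate was available and the depth per peak is unknown. Reads that align to several places were placed at one of them, which can move peaks in repeats.

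Peaks were grouped by arm, and positions are printed counted from 1. An arm was taken to span from position 1 to the last peak end of either list. Peaks were assigned to 1 Mb bins by their midpoint. Comparisons used exact binomial and Fisher's exact tests (two-sided), Newcombe intervals of differences and Wilson intervals at 95%, which cover counting error only. Regions were named by a rule, namely the 3 groups with most peaks, the 3 longest peaks, the 3 highest-scoring unshared peaks and the 3 longest gaps of each list, ties by start, and the bins with most and fewest peaks; further regions and bins were chosen after their values were seen. Members, thresholds and tests were chosen with earlier results of these data known. Alternatives left out 1 arm or the arm ends, changed thresholds, or counted groups; comparisons within score or length classes were added after seeing the data. Calculations in Python 3.11.15 (scipy 1.17.1, statsmodels 0.14.6, numpy 2.4.6, pandas 2.3.3, matplotlib 3.10.9) were tested on simulated lists. With bedtools 2.31.1, 6 of 6 counts on X, of overlapping peaks and of groups, came out equal. Sequences and gene names need Release 5, which was not used here.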

Additional observations from a re-analysis of the deposited data

How the results depend on the processing

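Of 98 alternative values (90 planned and 8 added after seeing the data), 90 kept the direction and the side of the threshold. Without the outer 1 Mb of every arm, the density ratio of X to the autosomal arms was 1.00 for ASH1 (88.7 against 88.6 per Mb), which turns its direction, and 0.968 for FSH, which lost its call. Without arm 2R the FSH ratio was 0.960 and lost its call. With peaks of a score of at least 100 only, the ASH1 density ratio was 0.906 and passed the binomial test (adjusted p = 0.000424), and the difference in ASH1 gaps of at most 1 kb turned to -0.21 points. Averaged over score classes the difference in ASH1 overlap turned to 1.16 points, although overlap stayed lower on X in the classes from 200 up. Within length classes the excess of scores below 100 was 0.34 points for ASH1 and 0.76 points for FSH, and both lost their call. The cause of these changes was not tested, and some alternatives also leave fewer peaks or arms. The lower shares of long peaks and of top scores for both proteins and the lower FSH overlap passed the test under all their alternatives, with differences of -13.9 to -3.19 points (ASH1, long), -11.0 to -2.10 (FSH, long), -14.0 to -2.20 (ASH1, top), -8.37 to -2.10 (FSH, top) and -10.6 to -3.33 (FSH, overlap). The higher FSH share of gaps of at most 1 kb also passed under all its alternatives, with differences of 2.65 to 4.73 points. No paired analysis was possible because each protein has 1 pooled list. What can be said of weak peaks is limited by a depth that the lists do not give.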
